A study of Drosophila melanogaster with 3 samples.

Results

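The vacuolar ATPase genes of the fly were taken as the protein-coding genes whose symbol starts with Vha in Ensembl release 115 of the dm6 assembly. This rule found 33 genes among 13945 protein-coding genes on the 6 main chromosome arms. Binding of the protein CG1647 at these genes was measured by chromatin immunoprecipitation and sequencing (ChIP-seq) in whole Drosophila melanogaster embryos of 0 to 24 h, with both sexes mixed. All embryos came from 1 transgenic line, CG1647-GFP, in which the protein carried GFP at its C-terminus and was pulled down through the tag. There were 3 biological replicates of this 1 group and no second condition, and a collection of this age range holds every embryonic tissue and stage at once.

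The vacuolar ATPase is a rotary proton pump. Its cytosolic sector, V1, hydrolyses ATP and turns a central stalk, and its membrane sector, Vo, carries protons through a rotating ring of proteolipids. The pump acidifies endosomes, lysosomes and secretory vesicles, and in insects it also sits in the plasma membrane of epithelia such as Malpighian tubules and gut, where it energises other transport. Several subunits are encoded by more than 1 fly gene. Often 1 copy is used in most cells and some of the others mainly in testis or gut. From such textbook knowledge, 14 members were classed as broadly used and 12 as tissue-limited, and the other 7 were left unplaced because their breadth of use was not certain. Expression was not measured here, so the classes are not checked by these data. They were also chosen with earlier results of these data known.

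Stretches of DNA under the binding summits at 5 bound members are shown first, to show what lay there. The retained peak list of the authors gave the summits, and a member counted as bound where such a summit lay within 500 bp of 1 of its transcript starts. Each stretch reads 5′ to 3′ on the strand of the gene named, in dm6 coordinates from the RefSeq copy of the assembly. It reaches at most 160 bases to each side of the summit and at most 10 bases into an exon. Capitals mark CAACACT and ATCGAT in either orientation. CAACACT is the core of a word that was more frequent at the other summits of the list than 500 bp away. ATCGAT is the centre of the DNA replication-related element.
Vha16-5, chr2L:10737173-10737354, minus strand: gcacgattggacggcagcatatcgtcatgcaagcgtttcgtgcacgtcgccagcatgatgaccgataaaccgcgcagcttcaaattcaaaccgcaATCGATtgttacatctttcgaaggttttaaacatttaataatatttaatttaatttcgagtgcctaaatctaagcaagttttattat
Vha55, chr3R:12627820-12628023, minus strand: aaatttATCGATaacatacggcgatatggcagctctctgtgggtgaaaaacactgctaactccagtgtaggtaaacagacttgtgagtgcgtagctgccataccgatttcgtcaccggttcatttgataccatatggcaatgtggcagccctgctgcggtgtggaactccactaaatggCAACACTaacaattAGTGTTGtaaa
Vha68-1, chr2L:13004098-13004363, minus strand: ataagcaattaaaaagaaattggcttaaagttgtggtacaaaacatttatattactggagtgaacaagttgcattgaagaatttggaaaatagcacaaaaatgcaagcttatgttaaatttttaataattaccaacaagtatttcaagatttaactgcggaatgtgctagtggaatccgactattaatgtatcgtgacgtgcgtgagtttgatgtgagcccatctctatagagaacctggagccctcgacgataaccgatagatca
Vha13, chr3R:19644377-19644578, minus strand: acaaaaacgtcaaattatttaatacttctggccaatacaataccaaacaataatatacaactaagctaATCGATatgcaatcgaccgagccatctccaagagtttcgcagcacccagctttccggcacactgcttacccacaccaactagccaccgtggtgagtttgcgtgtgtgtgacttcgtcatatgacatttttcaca
VhaM9.7-c, chr3L:4186856-4187040, minus strand: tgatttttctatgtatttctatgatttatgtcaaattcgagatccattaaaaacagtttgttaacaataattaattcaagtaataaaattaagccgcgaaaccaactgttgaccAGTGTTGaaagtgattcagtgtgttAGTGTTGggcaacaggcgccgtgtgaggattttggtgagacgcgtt
In Vha55 the last bases hold CAACACT at 15 bp before the start and its reverse complement from 1 bp before the start, and the summit lies just upstream of both. In VhaM9.7-c the word occurs in the reverse orientation at both marked places. The stretch at Vha68-1 holds neither word, and those at Vha13 and Vha16-5 hold only ATCGAT.

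Next are the 160 bases before the start of 3 broadly used members that were not bound, with the same words marked. The stretches above were taken around summits, so marked words cannot be compared between the 2 kinds of window. VhaPPA1-1 and VhaAC39-1 had no summit within 500 bp in any list, and neither stretch holds a marked word. Vha68-2 had a summit only among the unretained candidates, and its stretch holds ATCGAT. Among unbound broadly used members not printed, the same bases of VhaSFD hold ATCGAT and those of Vha26 hold no marked word.
VhaPPA1-1, chr3R:14904062-14904221, minus strand: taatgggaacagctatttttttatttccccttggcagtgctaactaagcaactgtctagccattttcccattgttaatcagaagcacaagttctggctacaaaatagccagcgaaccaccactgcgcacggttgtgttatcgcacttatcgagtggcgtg
VhaAC39-1, chrX:3880588-3880747, plus strand: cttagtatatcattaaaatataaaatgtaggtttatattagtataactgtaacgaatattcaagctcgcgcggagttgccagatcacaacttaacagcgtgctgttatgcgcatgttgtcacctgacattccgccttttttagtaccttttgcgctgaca
Vha68-2, chr2L:12974162-12974321, plus strand: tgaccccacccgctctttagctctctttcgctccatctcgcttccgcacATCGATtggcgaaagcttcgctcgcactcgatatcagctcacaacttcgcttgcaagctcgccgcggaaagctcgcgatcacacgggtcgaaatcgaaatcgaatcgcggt

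The retained list held 3123 peaks, which were exactly the 3123 peaks of highest signal in the pooled list of 19204 candidates. Signal is the value the authors' peak caller gave each peak. In the retained list it ran from 126 to 2899 with a median of 189. The candidate lists of replicates 1, 2 and 3 held 30000, 17977 and 30000 peaks, so each was brought to its own 3123 best-ranked peaks for counts per replicate. Read totals were not used here, so the depth behind each list is unknown. Intervals and standard deviations of shares cover counting over genes and the spread of the 3 replicates only. Neighbouring genes can share 1 summit and are not independent.

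Of the 33 vacuolar ATPase genes, 10 were bound (30.3%, exact 95% interval 15.6 to 48.7). Over all protein-coding genes the share was 16.2% (2266 of 13945), which lies within that interval. Among the broadly used members 7 of 14 were bound (50%, exact 95% interval 23.0 to 77.0). Among the tissue-limited paralogues the count was 1 of 12 (8.33%, exact 95% interval 0.211 to 38.5), and among the unplaced members it was 2 of 7. The intervals of the broadly used and tissue-limited members overlap, and the difference between them was not tested. When 1 replicate was left out and retained peaks had to overlap a best-ranked peak of both others, 6 or 7 broadly used members stayed bound. The count of unplaced members was then 1 without replicate 1 and 0 without replicate 2 or replicate 3. Over all genes 1721, 1533 and 1561 were bound without replicates 1, 2 and 3, against 2266 before. The retained list was still built from all 3 replicates, so these counts could only fall.

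The broadly used members had the highest share of the 3 classes in every replicate. In the best-ranked lists of replicates 1, 2 and 3, 9, 8 and 10 of the 33 members had a summit within 500 bp, or 27.3% ± 3.03 (SD, n = 3). Over all genes the shares were 14.6% in replicate 1, 16.4% in replicate 2 and 16.2% in replicate 3. For the broadly used members the counts were 8, 6 and 7 of 14, a mean of 50% ± 7.14 (SD, n = 3). For the tissue-limited paralogues the count was 1 of 12 in each replicate, and it was the same gene, Vha16-5. For the unplaced members the counts were 0, 1 and 2 of 7. Of the 33 members, 7 were found in the best-ranked lists of all 3 replicates, 2 in 2 of them, 2 in 1, and 22 in none.

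**Figure D1:**
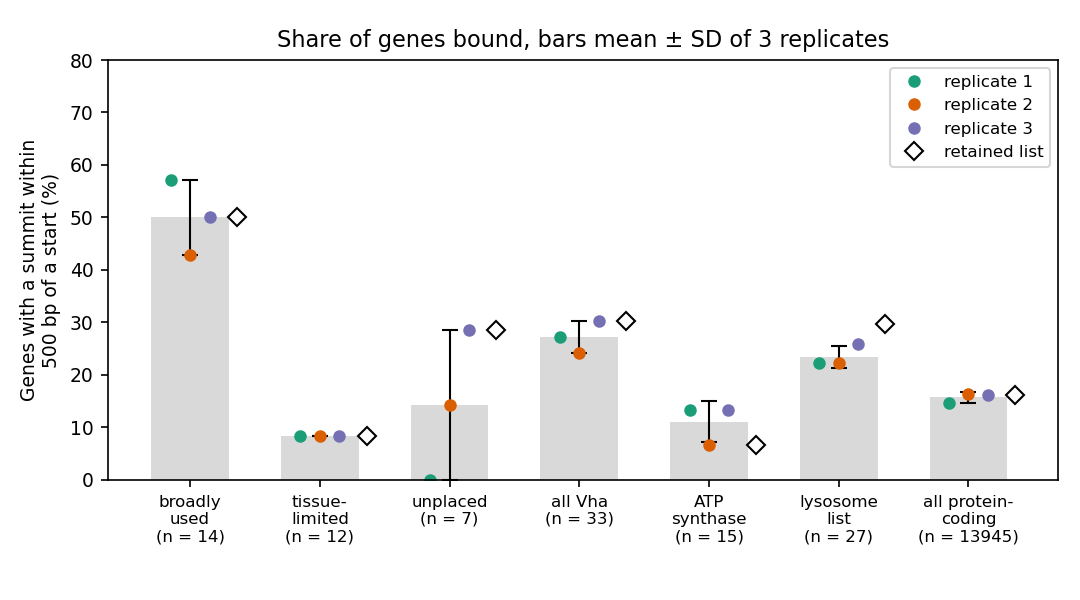
Percentage of genes with a summit within 500 bp of a transcript start, for the vacuolar ATPase genes by class, the ATP synthase genes, a list of lysosome genes and all protein-coding genes. Points are the 3123 best-ranked peaks of each replicate, bars and error bars their mean ± SD (n = 3), and open diamonds the retained list. The broadly used members stand at 50% in the retained list, the tissue-limited ones at 8.33% and all genes at 16.2%.

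In V1, 5 of 13 members were bound. Vha55 encodes the B subunit, which forms the ring of V1 together with the catalytic A subunit. Its summit, at position 12627863 of arm 3R, lay 34 bp upstream of a Vha55 start in an intergenic stretch. This peak had a signal of 398 and ranked 336 in the retained list. Its ranks were 258, 320 and 845 in replicates 1, 2 and 3, so it was within the best-ranked peaks of each list, and weakest by rank in replicate 3. Vha36-1, which encodes the rotor subunit D, had its summit at position 15541404 of arm 2R, 31 bp upstream of its only start, with a signal of 262 and a retained rank of 837. Its ranks were 940, 636 and 1541 in replicates 1, 2 and 3.

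Vha13 encodes subunit G of the peripheral stalk that holds V1 still. Its summit, at position 19644418 of arm 3R, lay 32 bp upstream of the start, with a signal of 169 and rank 1909. Its ranks in replicates 1, 2 and 3 were 2765, 1671 and 1764, all within the best-ranked 3123. Vha44 encodes subunit C, which links V1 to Vo and is released when the pump comes apart. Its summit, at position 16336714 of arm 2R, was 77 bp upstream of a start, with a signal of 167 and rank 1949, and its ranks were 1396, 3356 and 1957, so in replicate 2 it fell just outside the best-ranked peaks. The fifth V1 member was Vha68-1, an unplaced gene for the catalytic subunit A, with a signal of 190 and rank 1547. The summit was at position 13004203 of arm 2L, 96 bp upstream of the start. The replicates disagreed on it: its ranks were 932 in replicate 2 and 1421 in replicate 3, but 26782 of 30000 in replicate 1.

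In Vo, 5 of 18 members were bound. Vha100-2 encodes a broadly used copy of subunit a, the static membrane subunit through which protons enter and leave the ring. Its peak had a signal of 379 and rank 379, and its ranks were 298, 544 and 430 in replicates 1, 2 and 3. The summit, at position 18397249 of arm 3R, lay 321 bp upstream of an internal Vha100-2 start, inside an intron of the gene, and within the 5′ UTR of Vti1b, a SNARE gene. Vha100-2 was not bound with the first start only, within 200 bp, or where the peak had to cover the start. At its first start the best pooled candidate, 17 bp downstream, ranked 3351, outside the retained list. The best peaks near that start ranked 2025, 3309 and 5398 in replicates 1, 2 and 3. Vha16-1 encodes the main proteolipid c of the ring. Its best summit, at position 6633212 of arm 2R and 122 bp upstream of a start, had a signal of 227 and rank 1116, and the peak there ranked 1635, 843 and 2759 in replicates 1, 2 and 3. A second Vha16-1 summit, in its 5′ UTR, ranked 3083, close to the end of the retained list. At this second site the best peaks ranked 2273, 11880 and 2275 in replicates 1, 2 and 3, so it was the stronger site in replicate 3 and outside the best-ranked peaks in replicate 2.

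The small membrane subunit e is encoded by VhaM9.7-a, -b, -c and -d, of which 2 were bound. At VhaM9.7-b a summit of rank 2335 and signal 151, at position 21539512 of arm 3L, lay 350 bp upstream of the start, and a weaker one of rank 3089 lay at -113 bp. The ranks of the stronger peak were 2159, 3041 and 2227 in replicates 1, 2 and 3, all within the best-ranked peaks. At VhaM9.7-c the summit, at position 4186880 of arm 3L, lay 15 bp upstream of the start, in introns of the genes CG18675 and Teh2. It ranked 2937 with a signal of 131 and was the member nearest the end of the list from inside. Its ranks were 3907, 3371 and 2919, so only replicate 3 held it among its best-ranked peaks.

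The highest-ranking member was a tissue-limited one. Vha16-5, a paralogue of the proteolipid gene Vha16-1, had a peak of signal 458 and rank 253, with ranks of 218, 233 and 365 in replicates 1, 2 and 3. No other member had a better rank in any of the 3 replicates. The peak was 109 bp wide, against a median of 390 bp in the list, and its summit, at position 10737333 of arm 2L, lay 290 bp upstream of the Vha16-5 start. The same summit lay 12 bp from the start of CG12299, a gene that runs the other way. Which of these genes the peak belongs to cannot be told apart from a position.

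**Figure D2:**
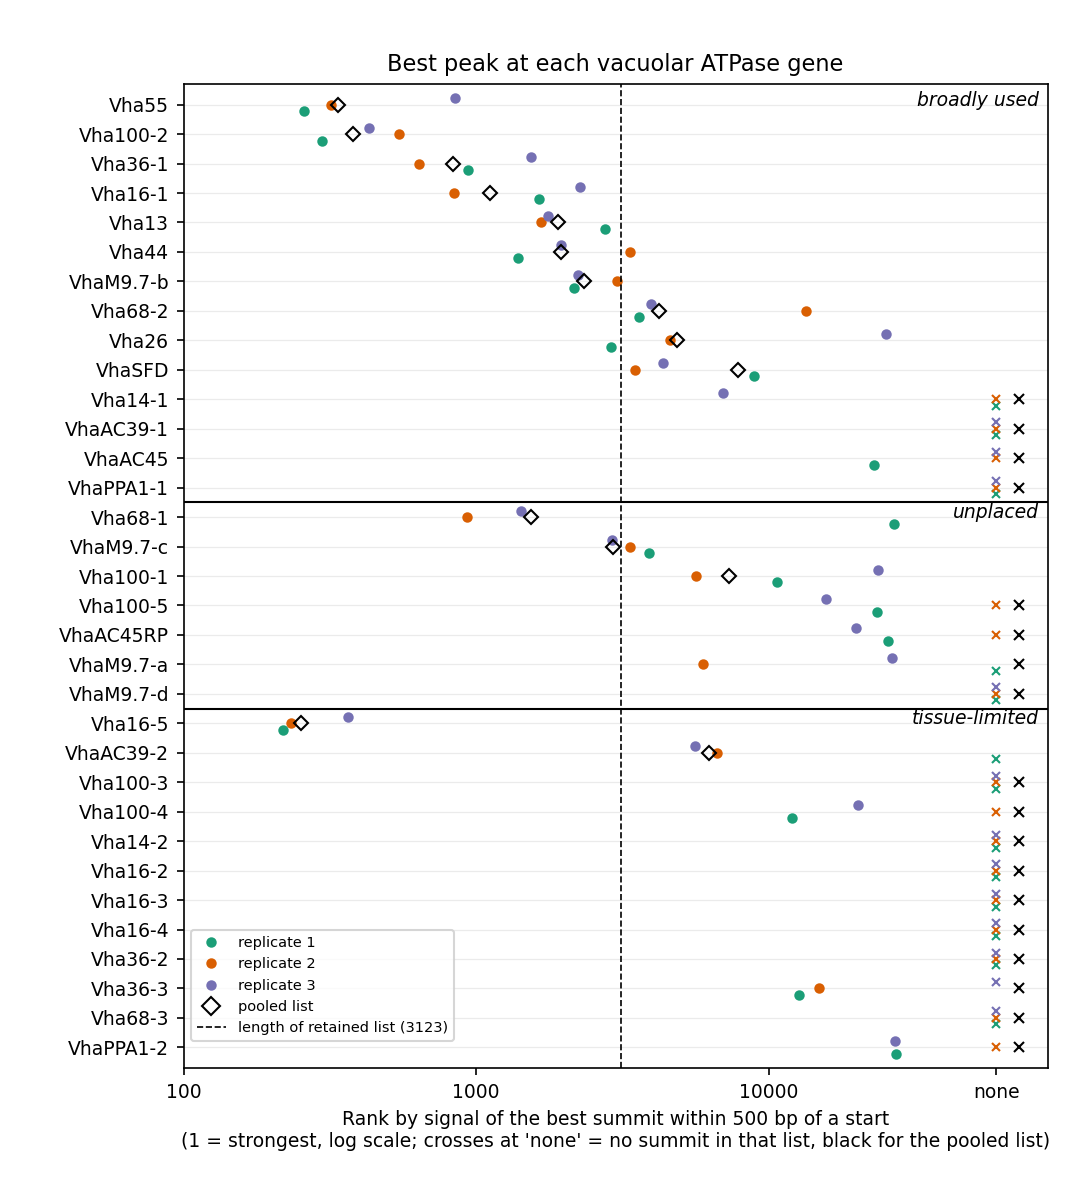
Rank by signal (log axis, 1 is strongest) of the best summit within 500 bp of a start, for each of the 33 vacuolar ATPase genes in each replicate (points) and in the pooled list (diamonds). The dashed line is the length of the retained list, 3123, and crosses mark lists with no such summit. The bound genes reach from Vha16-5 at rank 253 to VhaM9.7-c at rank 2937, and 10 genes have crosses only.

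The broadly used members that were not bound fell into 2 kinds. Vha68-2, Vha26 and VhaSFD each had a candidate summit in the pooled list. Vha68-2 encodes the catalytic subunit A in most tissues, and its pooled rank was 4226 with a signal of 105. In replicates 1, 2 and 3 it ranked 3603, 13420 and 3973, outside the best-ranked peaks of each. Vha26, the gene of peripheral stalk subunit E, had a pooled rank of 4871, and its best summits ranked 2882, 4587 and 25257 in replicates 1, 2 and 3. These were different sites: the pooled and replicate 1 summits lay at 395 and 463 bp, and those of replicates 2 and 3 at -182 and -176 bp. VhaSFD, the gene of regulatory subunit H, had a pooled rank of 7875, and its best summits ranked 8935, 3485 and 4355. They lay at 347, 467 and 65 bp, so that of replicate 3 was apart from the others.

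The other kind had no pooled candidate. Vha14-1, the gene of rotor subunit F, had a single candidate, at rank 6962 in replicate 3, and its nearest retained summit was 837 bp from a start. VhaAC45, the gene of an accessory subunit that takes part in assembly, had a single candidate at rank 22894 in replicate 1. VhaPPA1-1, the gene of proteolipid c″, and VhaAC39-1, the gene of subunit d that joins the ring to the central stalk, had no summit in any of the 5 lists. Their nearest retained summits lay at 5440 bp (downstream) and -12088 bp (upstream). Of the broadly used ring genes, Vha16-1 for proteolipid c was thus bound and VhaPPA1-1 for c″ was not.

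Counting every candidate of the pooled list, 15 of the 33 members had a summit within 500 bp, beside 44.0% of all genes (6135 of 13945), so the members stood close to the background there. By class these were 10 of the 14 broadly used, 2 of the 12 tissue-limited and 3 of the 7 unplaced members. Candidate lists hold background as well as peaks, by the authors' description. No summit in any list was found for 10 members (30.3%), against 36.6% of all genes. They were 7 tissue-limited genes (Vha100-3, Vha14-2, Vha16-2, Vha16-3, Vha16-4, Vha36-2 and Vha68-3), the broadly used VhaPPA1-1 and VhaAC39-1, and the unplaced VhaM9.7-d.

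Apart from Vha16-5, the tissue-limited member with the best pooled rank was VhaAC39-2, a paralogue of subunit d, at 6237. It had ranks of 6657 and 5625 in replicates 2 and 3 and no summit in replicate 1. Vha36-3 and Vha100-4 had a candidate in 2 replicates each (at different sites for Vha36-3), at ranks from 12059 to 20180, and so did VhaPPA1-2, at 27327 and 27105, near the end of lists of 30000. Among the unplaced members Vha100-1, a further copy of subunit a, had a pooled rank of 7343. VhaM9.7-a, Vha100-5 and VhaAC45RP had candidates in 2 replicates each and no pooled one, the best being VhaM9.7-a at rank 5983 in replicate 2. At VhaM9.7-a they lay at -226 and 326 bp and at Vha100-5 at -399 and 453 bp, so these were different sites.

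Several paralogues of 1 subunit lie close together in the genome. The starts of Vha16-2 and Vha16-3 are 1667 bp apart, and neither was bound. Those of VhaPPA1-1 and VhaPPA1-2 are 3784 bp apart, those of Vha68-2 and Vha68-3 4464 bp, and none of the 4 was bound. Vha100-4 starts 9364 bp from Vha100-2, and only the latter was bound. Vha68-1, which was bound, starts 29785 bp from Vha68-2, which was not. How the authors placed reads that match more than 1 copy of a gene is not given in the sources used here, so low values at the most similar paralogues are uncertain.

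The best summits of the bound members lay upstream of their starts, as did those of most bound genes. The median signed distance of the best summit was -86.5 bp, against -114 bp over all bound genes. The best summit was upstream in 10 of 10 members and in 1973 of 2266 bound genes. The second Vha16-1 summit lay 35 bp downstream of a start. Their median rank was 1331.5, against 1398 over all bound genes, so the vacuolar ATPase peaks were about as strong as those at other bound genes. The −log10 q of the members' best peaks ran from 1.79 at VhaM9.7-c to 3.58. The upper value is the highest in the retained list and is shared by 1888 of its peaks, so it does not order the stronger members.

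**Figure D3:**
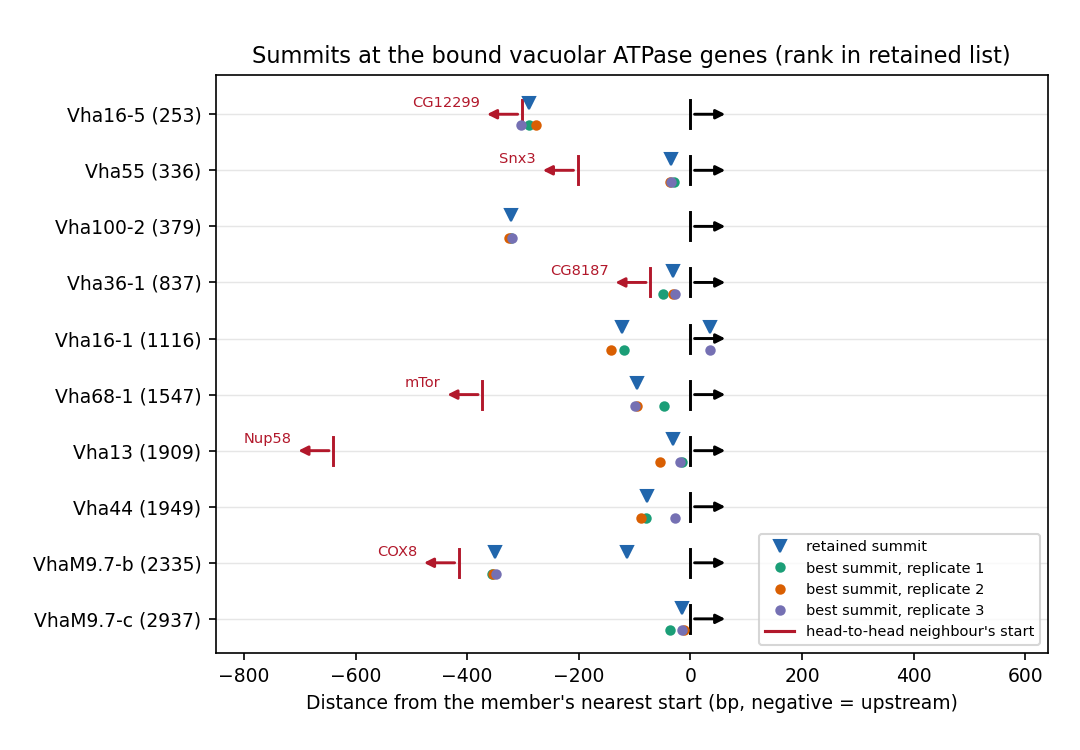
Positions of summits at the 10 bound vacuolar ATPase genes, ordered by rank in the retained list (in brackets). The horizontal axis is the distance in bp from the member's nearest start, with upstream negative. Triangles are retained summits, points the best summit of each replicate, and red lines the start of a gene running the other way. Best retained summits lie between 15 bp upstream at VhaM9.7-c and 350 bp upstream at VhaM9.7-b.

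Neighbouring genes were counted next. A gene on the other strand started within 1000 bp upstream of 12 of the 33 members (36.4%), close to the 33.3% of all genes. The classes differed: the 12 were 7 of the 14 broadly used members (50%), 2 of the 12 tissue-limited (16.7%) and 3 of the 7 unplaced. By sector they were 7 of the 13 V1 members, 4 of the 18 Vo members and 1 of the 2 accessory ones. Of these 12 head-to-head members 6 were bound, and of the other 21 members 4 were bound. Over all genes the shares were 29.1% with such a neighbour (1352 of 4650) and 9.83% without (914 of 9295). Over all 33 members the counts were above the background in both cases, and the difference was not tested. With such a neighbour 4 of 7 broadly used and 1 of 2 tissue-limited members were bound. Without one the counts were 3 of 7 and 0 of 10.

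For 7 of the 10 bound members another gene started within 500 bp of the same summit, against 59.4% of all bound genes (1346 of 2266). The nearest start was the member's own for 6 of the 10, against 71.2% of all bound genes (1614 of 2266). These members were Vha55, Vha36-1, Vha16-1, Vha13, Vha68-1 and VhaM9.7-c. At Vha55 the summit was 34 bp from its start and 168 bp from that of Snx3, a sorting nexin gene. At Vha68-1 it was 96 bp from the member and 277 bp from mTor, the gene of the growth-regulating kinase that is activated on lysosomes. At Vha36-1 the starts of the member and CG8187 were 72 bp apart, and the summit was 31 bp from the first and 41 bp from the second. At Vha13 the other gene, the nucleoporin gene Nup58, started 640 bp away and was not bound.

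For the other 4 the nearest start was another gene's. These were CG12299 at Vha16-5, Vti1b at Vha100-2 with 254 bp, Hmgs at Vha44 with 46 bp, and COX8 at VhaM9.7-b with 65 bp. Hmgs encodes HMG-CoA synthase, and COX8 encodes a subunit of cytochrome c oxidase. The summit counted for Vha44 lay in the 5′ UTR of Hmgs. Counting only members with the nearest start, 4 of 14 broadly used, 0 of 12 tissue-limited and 2 of 7 unplaced members remained, beside 11.6% of all genes (1614 of 13945). The head-to-head members that were not bound were Vha100-1 with dgt6, Vha14-1 with CG30091, Vha26 with noi, Vha36-3 with AANATL7, VhaAC45 with Gnptab and VhaM9.7-a with CG11586. Of these 6 neighbours only AANATL7 was bound.

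The median number of annotated starts was 1 in every class and over all genes. Broadly used members had 1.64 distinct starts on average, tissue-limited ones 1.17 and all genes 1.41. Without Vha68-2, which has 5 starts, the mean of the broadly used members was 1.38. Among genes with 1 start, 3 of 9 broadly used and 1 of 10 tissue-limited members were bound, against 12.5% of all such genes (1281 of 10246). Among genes with several starts, 4 of 5 broadly used members were bound, namely Vha55, Vha100-2, Vha16-1 and Vha44, and the exception was Vha68-2. Of the 2 tissue-limited members with several starts 0 were bound. Over all genes with several starts the share was 26.6% (985 of 3699). The part that starts and neighbours play in the difference between the classes was not tested.

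Promoter sequence was read from 250 bases before to 50 bases after each gene's first start, on both strands. CACGTG, the core of the sites bound by the Mitf and TFEB family of lysosome regulators, was present in 3 of the 33 members (Vha44, VhaAC45RP and VhaM9.7-d), beside 4.20% of all promoters. The longer palindrome TCACGTGA, which contains it, was present in Vha44 alone, beside 0.172% of all promoters (24 of 13945), and the part of it CACGTGA likewise in 1 member, beside 1.14%. With 100 bp on each side of the start read instead, TCACGTGA was in 2 members, both of them bound. Beside this stand 0.100% of all promoters and 0.397% of the bound ones. CACGTGA was then in 3, all of them bound, beside 0.717% of all promoters and 1.28% of the bound ones. In Vha44 it began 48 bp before the start and 29 bp downstream of the summit. A CACGTG also lay 90 bp downstream of the Vha55 summit, beyond its start and outside the stretch printed above. Within 100 bp of a summit, CACGTG and CACGTGA were each in 2 of the 12 members' peaks, and TCACGTGA in 1. Over all retained summits CACGTG was in 2.56%, against 2.71% of windows 500 bp away. For CACGTGA the shares were 0.865% and 0.833%, and for TCACGTGA 0.0961% and 0.112%. Over the whole list these words were thus about as frequent away from summits as at them.

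TATCGATA, the full DNA replication-related element, was present at Vha55, 189 bp before the start, and at the unbound VhaSFD, 23 bp before it. That is 2 of 33 members, beside 9.36% of all promoters. Its centre, ATCGAT, was present in 10 of the 33 promoters (30.3%), beside 23.3% of all promoters. These were 4 of the 10 bound members (Vha13, Vha16-5, Vha36-1 and Vha55) and 6 of the 23 unbound ones (Vha26, Vha68-2, VhaAC45RP, VhaM9.7-a, VhaPPA1-2 and VhaSFD). Within 100 bp of a summit it was in 3 of the 12 members' peaks, beside 12.7% of all retained summits. TATAAA was present in 17 members, 8 of them tissue-limited, beside 45.8% of all promoters, and CAGCTG in 8 members, beside 17.7%. No members' peak held TATCGATA within 100 bp of its summit (0 of 12), while 4.90% of all retained summits did.

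Words more frequent at the other summits than 500 bp away were also looked for. At the 3111 retained summits outside the members' peaks, 8-base words were ranked by their counts relative to windows 500 bp away. Forms of the DNA replication-related element led, and CAACACTG, the first other word, was at place 5. It was present within 50 bp of 2.70% of those summits, against 0.354% of windows 500 bp away. Its core, CAACACT, was in 4 of the 33 members' promoters, beside 7.30% of all promoters (1018 of 13945) and 15.9% of the bound ones. The 4 were Vha55, Vha36-1, Vha44 and VhaM9.7-c, all of them bound, and of the 23 unbound members 0 had it. As the word was picked for its frequency at other retained summits, a higher share at bound genes is partly built in. Vha55, Vha44 and VhaM9.7-c each held it at 2 places. It lay within 100 bp of the summit in 4 of the 12 members' peaks, beside 8.52% of all retained summits. These matches describe letters in a window and do not show which protein binds there.

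The most similar machine, the mitochondrial F-type ATP synthase, was set beside the vacuolar ATPase. Of 15 genes whose symbol starts with ATPsyn, 1 was bound: ATPsynE, which encodes a small membrane subunit, at rank 1299 with a signal of 209. Its summit lay 42 bp downstream of the start. In the pooled candidate list 7 of the 15 had a summit (46.7%), close to 45.5% of the vacuolar ATPase genes and 44.0% of all genes. The replicates gave 2, 1 and 2 of 15, or 11.1% ± 3.85 (SD, n = 3), below the vacuolar ATPase genes in each replicate. They were also below the shares of all genes, 14.6%, 16.4% and 16.2%. These differences were not tested.

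Of 27 genes for lysosome function and its signalling, 8 were bound (29.6%), close to the 30.3% of the vacuolar ATPase genes. They ranked from 521 at Lamtor3 to 2975 at spin. Lamtor3 and Lamtor4, of the complex that anchors mTor signalling to the lysosome, ranked 521 and 2814, and Rheb, the small GTPase that activates mTor, ranked 1156. The protease genes CtsL1 and CtsB ranked 919 and 2493, and Ppt1, a lysosomal thioesterase gene, ranked 1596. The eighth was mTor itself, through the summit it shares with Vha68-1. For 7 of the 8 another gene started within 500 bp of the same summit, against 59.4% of all bound genes. The nearest start was the listed gene's own for 5 of the 8, against 71.2%. Of these 8 genes 7 had a head-to-head neighbour, as had 15 of the 27 listed genes (55.6%), against 33.3% of all genes. With such a neighbour 7 of 15 listed genes were bound, beside 29.1% of all such genes. Without one it was 1 of 12, beside 9.83%. The part that neighbours play here was not tested. With replicate 1, 2 or 3 left out in the way described above, 6, 5 or 4 of the 27 stayed bound. Over all genes 1721, 1533 or 1561 of 2266 did. Mitf, the fly gene of the TFEB family, was not bound and had a pooled rank of 5587. The vacuolar ATPase accessory gene once named VhaM8.9, now ATP6AP2 and so not found by symbol, was bound at rank 2816 with a signal of 135, 24 bp upstream of its start. Its ranks in replicates 1, 2 and 3 were 3611, 3526 and 1967.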

How the data were processed

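ChIP-seq peak lists of 3 biological replicates of 1 group were used. According to the notes deposited beside the libraries, the authors made candidate lists as input for the irreproducible discovery rate (IDR), for each replicate and for the pooled alignments, against a control alignment. They also deposited a retained list past an IDR threshold, which is built from the replicates and is not a separate sample. The signal values were given to each peak by the authors' peak caller, and their scale is not stated, so signal was compared only within a list, as ranks. The authors also deposited a −log10 q-value for every peak. Which aligner, peak caller, IDR cut-off and control were used is not given in the sources used here. The labels name dm6 and dm3, and the dm3 lists were not used.

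Summits were compared with transcript starts of protein-coding genes in Ensembl release 115 of the dm6 assembly, on 6 arms, with a limit of 500 bp. Python 3.11.15, pandas 2.3.3, NumPy 2.4.6 and SciPy 1.17.1 were used. Shares have exact Clopper-Pearson 95% intervals. The search for summits near starts was tested on simulated data. Members, classes, gene lists and motifs were chosen with earlier results of these data known. The word CAACACTG and its core were chosen after the other summits were read, as the first of the 10 leading words without ATCG, among words present in at least 50 summit windows. Every member is named, with each gene sharing its summit or starting head to head with it, and each bound gene of the ATP synthase and lysosome lists. Of 27 listed lysosome symbols 27 were found, some under newer names. No test between groups was possible with 1 group. Alternatives were other distances, peak midpoints or overlap in place of summits, the first start only, shorter and longer lists, other classes, and each replicate left out.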

Additional observations from a re-analysis of the deposited data

How the results depend on the processing

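The count of 10 bound vacuolar ATPase genes was 8 within 200 bp and where the peak had to cover the start, 11 within 1000 bp, 10 by peak midpoint and 9 with the first start only. Without replicate 1, 2 or 3 it was 7 to 8, for the broadly used members 6 to 7, for the tissue-limited ones 1, for the unplaced ones 0 to 1 and for the lysosome list 4 to 6, and each had the same range when 50% of the peak had to be covered (5 lysosome genes without replicate 2). The 1561 retained peaks of highest signal left 6 vacuolar ATPase genes, 4 broadly used, 1 unplaced, 4 lysosome genes and 1244 genes in all. Counting only the gene with the nearest start, an alternative added after seeing the data, left 6, of which 4 were broadly used and 0 tissue-limited, and 1614 genes in all. Within 200 bp, and where the peak had to cover the start, 0 tissue-limited members and 4 lysosome genes remained. With the unplaced members added to the tissue-limited ones, 3 of 19 were bound. Over all genes the count of 2266 was 1655 within 200 bp, 1570 where the peak had to cover the start and 2608 within 1000 bp. By peak midpoint it was 2265, and with the first start only 2032. Without replicate 1, 2 or 3 it was 1721, 1533 or 1561. When 50% of the peak had to be covered, these were 1671, 1516 and 1505.

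The mean share over replicates was 16.2% for the vacuolar ATPase genes, 26.2% for the broadly used and 8.72% for all genes with 1561 peaks per replicate, and 58.6%, 76.2% and 47.3% with every candidate, where tissue-limited members came to 30.6%. Within 200 bp these shares were 18.2%, 35.7% and 11.4%, with 0% for tissue-limited members, and within 1000 bp 31.3% for the vacuolar ATPase genes and 18.3% for all genes. TATAAA was in 51.5% of the members' promoters and in 30.3% when 100 bp on each side of the start were read. The same change took CACGTGA from 3.03% to 9.09%, TCACGTGA from 3.03% to 6.06%, TATCGATA from 6.06% to 3.03%, and ATCGAT, counted after seeing the data, from 30.3% to 21.2%. The broadly used share was above that of all genes, and above that of the tissue-limited members, in each of these settings that gave both values. The settings re-cut the same peak lists and are not independent, so this adds no separate support for a difference between the classes. The causes of these shifts were not tested. The depth of each library is unknown, so a gene without a summit is not shown to be unbound, and with 12 to 14 genes in a class each gene moves its share by several percentage points.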
